A study of Drosophila melanogaster with 24 samples.

Results

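The genes described here are the 7 vitelline membrane genes of Drosophila melanogaster listed by name in the series' count tables: Vm26Aa, Vm26Ab, Vm26Ac, Vm32E, Vm34Ca, Vml and psd. They were taken by symbol, and all 7 were found among the 16727 genes of each table. Their levels were followed over both sexes, both tissues and both diets, with the values in each female body library. Vm32E, Vml and Vm26Ac are also named in the study of these same libraries, so their values here are not independent evidence of a direction.

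The vitelline membrane is the inner layer of the insect eggshell. Its proteins are made and secreted by the somatic follicle cells that surround the oocyte, in the middle stages of egg chamber growth, before the same cells turn to the chorion proteins of the outer eggshell layers. Transcripts of these genes are therefore known as products of the adult ovary at a limited stage of oogenesis.

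The flies were adult w1118, a white-eyed laboratory strain, and every group carried the same genotype. RD flies were fed a regular diet made, by the study's methods, from a commercial fly food mix. HFD flies were fed that diet with 20% coconut oil added, a source of saturated fat, and both groups stayed on their diet for 7 days as adults after the sexes had been separated. The labels give an age of 5 to 7 days for the flies put on HFD and no age for the RD flies. Heads and headless bodies were sequenced separately, giving 8 groups (sex, tissue and diet) of 3 libraries each, 24 in all. Each head library was made from about 100 heads and each body library, by the labels, from 10 bodies, so that a library is a pool of animals. The comparison of diets asks which transcripts differ between HFD and RD within a sex and tissue, and the comparisons of sexes and tissues ask where the transcripts are found.

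Total counts on genes ran from 13.4 to 25.7 M (M for mega) per library and from 19.2 to 21.0 M in the 6 female body libraries. The markers of each labelled tissue were highest in that tissue. The summed level of 10 ovarian germline genes was 2456 to 2824 CPM (counts relative to a library size scaled by the trimmed mean of M-values, TMM) in female bodies against 90.3 to 106 in female heads. The summed level of 12 photoreceptor genes was 45638 to 77614 CPM in heads and 101 to 144 in female bodies. In male bodies it was 122 to 137 in 4 libraries, 521 in HFD replicate 3 and 2915 in RD replicate 3, and that last library had 6 reads of the 7 genes.

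Of the 7 genes, 6 lie on chromosome arm 2L and 1 on the X chromosome (Release 6 assembly, BDGP6 or dm6, with the Ensembl annotation). A cluster on 2L holds 4 of them within 7948 bases with no other annotated gene between its ends. In order along the arm they are Vm26Ab (FBgn0003980, chr2L:5957004-5957639, plus strand), Vm26Ac (FBgn0086266, chr2L:5958005-5958631, minus strand), Vm26Aa (FBgn0003979, chr2L:5959596-5960340, minus strand) and psd (FBgn0086265, chr2L:5963087-5964951, minus strand). The gaps between neighbours are 365, 964 and 2746 bases. Vm26Aa and Vm26Ab encode small abundant structural proteins of the membrane, and psd (palisade) encodes a protein needed to assemble it.

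**Figure D1:**
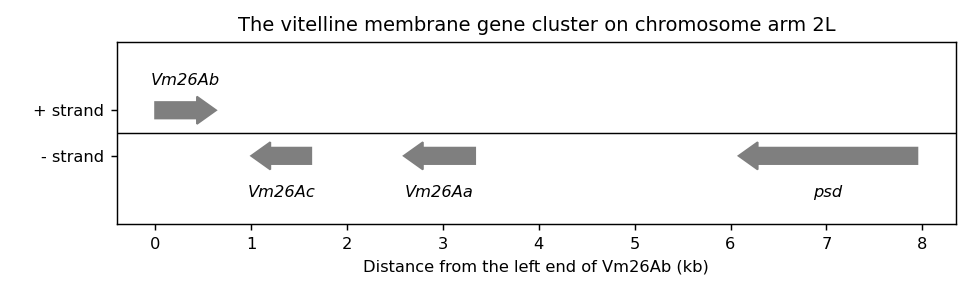
The 4 clustered genes drawn to scale by distance, in kb, from the left end of Vm26Ab, with arrows pointing in the direction of transcription. Vm26Ab is on the plus strand and the other 3 are on the minus strand, within 7948 bases.

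The other 3 genes lie outside the cluster. Vm32E (FBgn0014076, chr2L:11171167-11171665, minus strand) encodes a protein found in the vitelline membrane and the endochorion. Vm34Ca (FBgn0003983, chr2L:13411141-13411631, minus strand) encodes another small structural protein, and Vml (FBgn0085362, chrX:2275822-2277781, plus strand) a vitelline membrane-like protein that is modified during dorsoventral patterning of the embryo. Of the 7 genes, 6 have a single exon, and psd has 2. The span of Vm32E overlaps that of Ca-beta, a calcium channel subunit gene on the same strand, so reads at Vm32E could in part come from Ca-beta. Vm26Aa, Vm26Ab, Vm32E and Vm34Ca are related in sequence. How reads matching more than 1 gene were counted is not given in the sources used here, so the division of reads among them is uncertain.

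The vitelline membrane transcripts were found almost wholly in female bodies. The 6 female body libraries held 31268 reads of the 7 genes, against 57 in the 6 female head libraries, 51 in the 6 male body libraries and 28 in the 6 male head libraries. Relative to the total counts on genes, the female bodies held 564 times the level of the male bodies (exact 95% interval 429 to 758, counting error only) and 520 times that of the female heads (401 to 686). The lowest female body library had a summed level of 29.0 CPM, and the highest library of any other kind, male body HFD replicate 2, had 0.980 CPM.

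**Figure D2:**
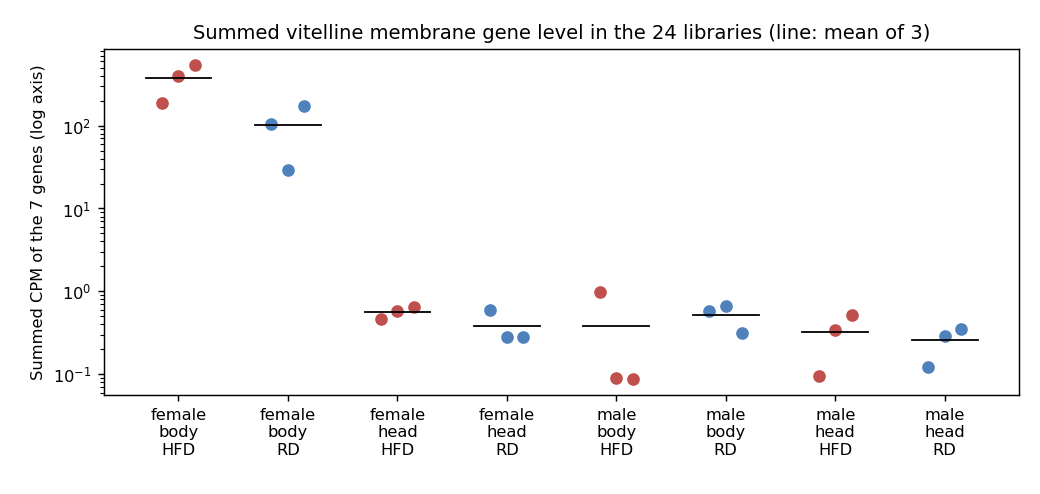
Summed CPM of the 7 vitelline membrane genes (log axis) in each of the 24 libraries, grouped by sex, tissue and diet, with HFD in red, RD in blue and a line at each mean of 3. The 6 female body libraries lie between 29.0 and 537 CPM, and the other 18 lie below 1 CPM.

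Among the 7 genes the ratio of female to male bodies differed widely. Vm26Aa had 14420 reads in female bodies and 2 in male bodies, a ratio of 6636 with an exact counting interval of 1837 to 54798. Vm34Ca had 5522 and 3 reads, a ratio of 1694 (579 to 8217). Vm32E had 1070 reads in female bodies and none in the 6 male body libraries, so it was at least 328-fold higher in females when the 0 is replaced by a floor of 3 counts over the group. The ratio was lower for Vm26Ab at 402 (244 to 720), Vml at 189 (108 to 366) and psd at 63.6 (39.6 to 110). Vm26Ac, with 61 reads in female and 2 in male bodies, was the least abundant gene, with a ratio of 28.1 (7.44 to 237).

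The male body reads were unevenly spread. Of the 51, 23 were in HFD replicate 2, with 11 of psd and 6 of Vml, while HFD replicates 3 and 4 had 1 read each. Without HFD replicate 2, the ratio of female to male bodies was 138 for psd in place of 63.6 and 290 for Vml in place of 189. The 3 RD male body libraries had 10, 10 and 6 reads, and Vm26Ab was the only one of the genes with a read in all 6 male body libraries. In male heads, Vm32E had 9 of the 28 reads. Ca-beta, which overlaps it, had 3486 to 7824 counts per male head library. Female head libraries had 3721 to 4752 counts of Ca-beta, with 5 reads of Vm32E in all 6 libraries. Male body libraries had 952 to 1556 counts of Ca-beta and none of Vm32E, and female body libraries had 587 to 757 of Ca-beta. The part of Ca-beta in the Vm32E reads was not tested.

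The model fitted across all genes (edgeR's quasi-likelihood test, Benjamini-Hochberg adjusted p) tests a gene only if it has enough reads in at least as many libraries as the smaller group holds. For these genes that condition is met through female bodies, so the genes that could be tested had to differ between sexes and tissues and their number supports nothing further. On RD 4 genes were tested against male bodies (Vm26Aa, Vm26Ab, Vm34Ca and psd), and all 4 were higher in females, where 35.1% of all genes tested were called higher. On HFD 6 were tested and 6 were higher in females, against 32.4% of all genes. Against female heads the counts were 4 of 4 on RD (45.5% of all genes called higher in bodies) and 6 of 6 on HFD (44.7%). Fitted fold changes for these comparisons are not given here, because the groups other than female bodies hold so few reads of these genes.

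Within female bodies the 7 genes differed in level by over 2 orders of magnitude. Per length, in TPM (transcript counts per length, scaled to a common total), the mean over the 3 HFD libraries was 442 ± 246 for Vm26Aa, 301 ± 109 for Vm34Ca, 200 ± 117 for Vm26Ab, 60.5 ± 17.2 for Vm32E, 37.8 ± 14.1 for Vml, 16.2 ± 7.31 for psd and 2.69 ± 2.25 for Vm26Ac (SD, n = 3). Neighbours in this order whose libraries overlapped were Vm26Aa with Vm34Ca, Vm34Ca with Vm26Ab, and Vm32E with Vml. The libraries of Vm26Ab and Vm32E, of Vml and psd, and of psd and Vm26Ac did not overlap.

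On RD the order was different. The mean TPM was 131 ± 109 for Vm26Aa, 106 ± 67.2 for Vm26Ab, 33.1 ± 23.3 for Vm34Ca, 6.32 ± 3.64 for psd, 3.30 ± 4.19 for Vm32E, 1.90 ± 1.53 for Vml and 0.189 ± 0.212 for Vm26Ac (SD, n = 3). Here every neighbouring pair down to Vm32E and Vml overlapped, and only the last step, from Vml to Vm26Ac, did not. The 2 genes that stood below psd on RD but above it on HFD were Vm32E and Vml.

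The 6 genes with enough reads to be tested were also among the most variable of those measured in female bodies. The SD of log2(CPM + 1) over the 6 libraries had a median of 0.148 over the 10282 genes tested there and a 99th percentile of 0.912. It was 2.16 for Vml, 1.99 for Vm34Ca, 1.88 for Vm32E, 1.58 for Vm26Aa, 0.98 for Vm26Ab and 0.91 for psd, which placed them at ranks 14, 21, 26, 34, 94 and 104. The highest library had from 7.67 times (Vm26Ab) to 416 times (Vm32E) the CPM of the lowest, against 1.35 times for the median gene. The chorion genes varied still more, since 8 of the 9 ranked from 1 to 12, above all of the vitelline membrane genes, with Cp15 at rank 76. The summed level of the 7 genes ranged 18.5-fold, while that of the ovarian germline genes ranged 1.15-fold, that of the 3 yolk protein genes 1.76-fold and that of the 9 chorion genes, whose members were not high in the same libraries, 8.42-fold.

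Between diets, the vitelline membrane genes had more reads in the bodies of females on HFD than on RD, and 3 of them did so in every library. The HFD libraries are given in the order of replicates 2, 3 and 4, and the RD libraries in the same order. Vml had 498, 717 and 1128 counts on HFD and 73, 9 and 35 on RD. Vm32E had 237, 422 and 355 counts on HFD and 46, 1 and 9 on RD. Vm34Ca had 944, 1942 and 2092 counts on HFD and 289, 38 and 217 on RD. For these 3 genes, all of them outside the cluster, the lowest HFD library was above the highest RD library, and RD replicate 3 was the lowest of the 6.

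Across all genes, 406 of 10282, or 3.95%, had every HFD library above every RD library, against 3 of the 6 vitelline membrane genes tested. The mean was 35.5 ± 13.01 CPM on HFD and 1.79 ± 1.41 on RD for Vml, 15.5 ± 3.98 and 0.841 ± 1.06 for Vm32E, and 75.6 ± 26.1 and 8.37 ± 5.83 for Vm34Ca (SD, n = 3). The fitted log2 fold change was 4.35 for Vml (95% interval 2.996 to 5.71), 4.22 for Vm32E (2.34 to 6.10) and 3.23 for Vm34Ca (1.79 to 4.67), which are 20.4, 18.7 and 9.38-fold. By size these stood at ranks 3, 4 and 9 of the 10282 genes tested. Vm32E and Vml had enough reads to be tested only with their HFD libraries counted. The 3 of 6 and these ranks therefore describe the genes and are not evidence beyond them.

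In the cluster the groups overlapped for each gene. Vm26Aa had 1451, 3969 and 5760 counts on HFD and 1045, 230 and 1965 on RD, with HFD replicate 2 below RD replicate 4. Vm26Ab had 653, 1255 and 2411 counts on HFD and 736, 297 and 1208 on RD. For psd there were 146, 283 and 418 counts on HFD and 177, 48 and 103 on RD. HFD replicate 2 was thus below at least 1 RD library for all 3 of these genes, HFD replicate 4 was the highest library for all 3 and RD replicate 3 the lowest.

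The log2 fold change was 1.80 for Vm26Aa (95% interval 0.08 to 3.53), 1.402 for psd (0.25 to 2.55) and 0.96 for Vm26Ab (-0.38 to 2.29). Vm26Ac had 1, 30 and 26 counts on HFD and 3, 0 and 1 on RD, too few for the filter on low counts, so it was not tested. Its reads came from HFD replicates 3 and 4, with HFD replicate 2 at the level of RD.

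**Figure D3:**
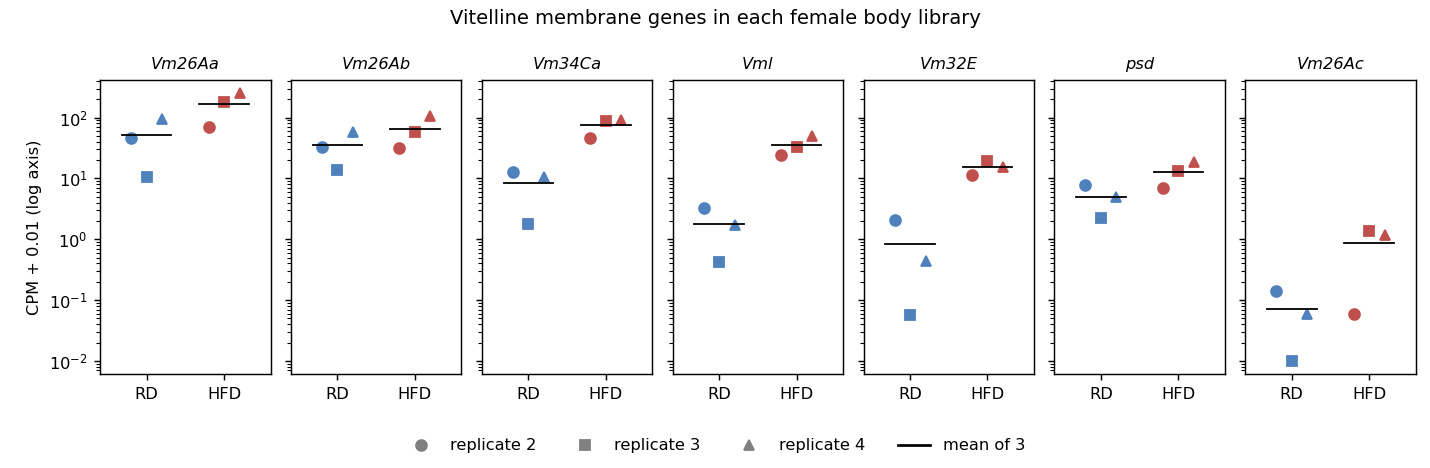
CPM + 0.01 (log axis) of each vitelline membrane gene in the 3 RD (blue) and 3 HFD (red) female body libraries, with the marker shape giving the replicate number and a line at the mean of 3. The groups are apart for Vm34Ca, Vml and Vm32E and overlap for Vm26Aa, Vm26Ab, psd and Vm26Ac.

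After adjustment over the 10282 genes tested, edgeR called 0 of the 6 vitelline membrane genes, and 0% of all genes, with an adjusted p of 0.936 for each of the 6. Unadjusted, 5 of the 6 had p below 0.05 with the higher level on HFD, against 2.97% of all genes in that direction. These were, from the smallest p upwards, Vml, Vm32E, Vm34Ca, psd and Vm26Aa, at ranks 1, 5, 6, 136 and 296 of all genes tested, while Vm26Ab was the exception at rank 1270. Without HFD replicate 4 only 3 of the 6 were below 0.05 (Vml, Vm32E and Vm34Ca), and these 3 stayed below it with each library left out in turn. The count was 4 without HFD replicate 3, RD replicate 2 or RD replicate 3, and Vm26Aa was above 0.05 in each of those. A log2 fold change above 1 was found for 5 of the 6, against 0.798% of all genes. The median log2 fold change of the 6 was 2.51, and that of all genes 0.00. Vm32E and Vml reached the needed reads in 3 libraries only with HFD libraries counted, so these counts describe the 6 genes and are not evidence beyond them. With at least 10 counts asked of every library, 4 of the genes were left (Vm26Aa, Vm26Ab, Vm34Ca and psd), with a median of 1.602 and 0 called by edgeR.

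Vml crossed the threshold with DESeq2 and in a wider edgeR fit, but not with limma-voom. DESeq2 called 7 genes, of which 6 (0.0584%) were higher on HFD, and Vml was the only vitelline membrane gene among them (log2 fold change 4.36, adjusted p = 0.000116). A single edgeR fit of all 24 libraries called 1 of 13821 genes (0.00724%), again Vml (4.33, SE 0.577, adjusted p = 0.00551). limma-voom called 0 genes. The p-values of the fits on female bodies alone measure the spread between these 3 pools per group. That of the fit of all 24 libraries draws its spread from all 8 groups. Only the female body groups among them hold more than a few Vml reads, so it does not measure the spread of these pools. In a bulk sample, fewer egg chambers of the stage that transcribes these genes and less RNA per cell cannot be told apart.

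The size of the difference depended on single libraries for all 6 genes tested. Without RD replicate 2 the fold was 65.5 for Vm32E and 34.9 for Vml, and without RD replicate 4 it was 6.01 for Vm26Aa in place of 3.48. Without RD replicate 3 the fold was lower, at 12.8 for Vm32E, 14.9 for Vml and 2.51 for Vm26Aa. With each library left out it ran from 6.76 to 12.9 for Vm34Ca, 2.05 to 3.69 for psd and 1.32 to 2.85 for Vm26Ab. The direction was the same with each library left out in turn for all 6 genes tested.

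The make-up of the vitelline membrane reads differed between diets as well. Vm26Ab made up 14.6% to 19.8% of the reads of the 7 genes in the HFD female bodies and 31.1% to 47.7% in the RD female bodies. Vm34Ca made up 17.2% to 24.02% on HFD and 6.10% to 12.2% on RD, and Vml 8.32% to 12.7% and 0.989% to 3.08%. Each of these ranges is apart from its counterpart, and so is that of Vm32E, at 2.91% to 6.03% on HFD and 0.161% to 1.94% on RD, where the lowest value is 1 read (Wilson 95% interval 0.0283% to 0.904%, counting error only). The share of Vm26Aa overlapped, at 36.9% to 47.3% and 36.9% to 55.5%, as did that of psd, at 3.28% to 3.72% and 2.91% to 7.70%. Shares of a common total are not independent of each other, and no test was made on them.

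The levels of the 7 genes went together over the 6 female body libraries. On the log2(CPM + 1) scale the 21 pairs had a Pearson r of 0.601 to 0.987, with a median of 0.841. The 3 pairs of Vm32E, Vm34Ca and Vml had r of 0.963 to 0.987, the 3 pairs of Vm26Aa, Vm26Ab and psd 0.853 to 0.961, and the 9 pairs across these trios 0.601 to 0.933. These values describe 6 libraries, 3 on each diet, with every gene measured in the same 6 pools of bodies. A difference between diets enters each of the values. The former trio lies outside the cluster and the latter inside it, and this division was made after the values had been seen.

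Among the genes of the outer eggshell layers, the 9 chorion genes were not high and low in the same libraries as the vitelline membrane genes. In female bodies on HFD against RD, 0 of 9 were called by edgeR, 0 had an unadjusted p below 0.05 and 0 had groups apart, with 8 log2 fold changes above 0 and 1 below and a median of 0.73. They ran from -1.18 for Cp15 (SE 0.521) to 1.85 for Cp19 (SE 1.65). The SE of Cp19 is too wide to exclude a difference as large as those of the vitelline membrane genes. Over the 63 pairs of a vitelline membrane and a chorion gene the r was -0.891 to 0.512, with a median of 0.159.

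Single libraries differed in which eggshell genes they held, as examples chosen after their values were seen show. In RD replicate 4, Cp36 had 7 counts and Cp38 had 12, where Vm26Aa had 1965 and Vm26Ab 1208. In RD replicate 3, the lowest library for the vitelline membrane genes, Cp36 had 8693 counts and Cp38 had 10692. HFD replicate 3 had 5 counts of Cp16, 21 of Cp18 and 13 of Cp19, where Vm34Ca had 1942. All 7 vitelline membrane genes were at their lowest in RD replicate 3, while the chorion genes were mixed there and in HFD replicate 3. Neither set was high or low throughout in RD replicate 4. That library had 4122 counts of Cp15 and from 2 (Cp7Fb) to 33 (Cp18) of the other chorion genes, with 35 of Vml and 9 of Vm32E. RD replicate 3 had 36 counts of Cp16 and 114 of Cp18, and HFD replicate 3 had 4228 of Cp36, 5958 of Cp38 and 2092 of Cp15.

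**Figure D4:**
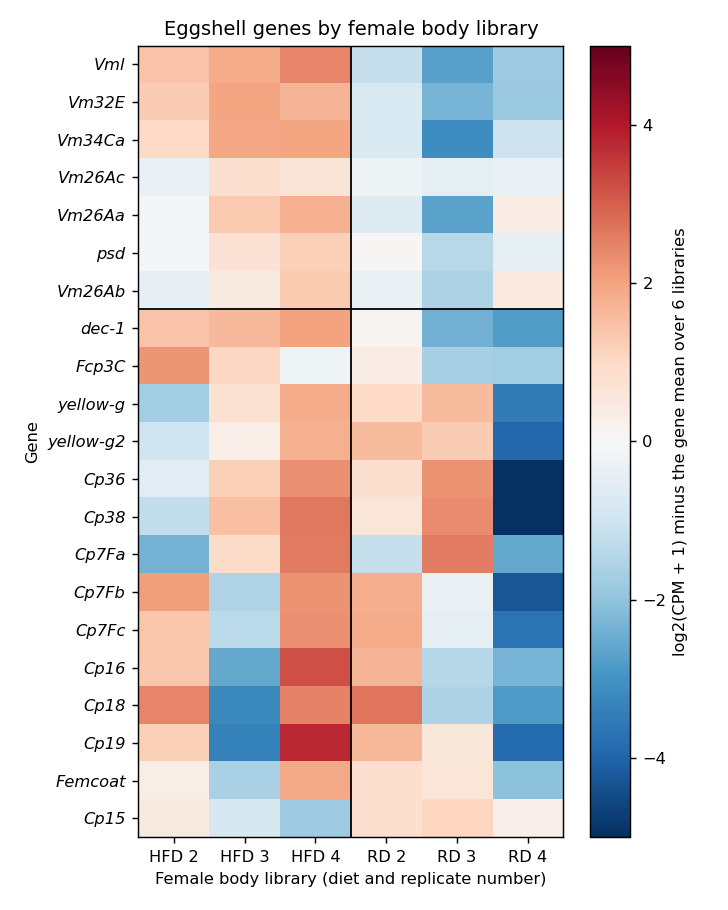
Log2(CPM + 1) minus the gene's mean over the 6 female body libraries (color), for the 7 vitelline membrane genes (above the horizontal line) and other eggshell genes (below it), by diet and replicate. Vml, Vm32E, Vm34Ca and dec-1 are above their mean in the 3 HFD libraries, while Cp36 and Cp38 are lowest in RD replicate 4.

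Of 13 measured genes of eggshell assembly and patterning, 0 were called by edgeR, and the median log2 fold change was 0.06. An unadjusted p below 0.05 was found for 2, both with the higher level on HFD, against 2.97% of all genes in that direction. One was dec-1, which encodes follicle cell proteins of the eggshell. It had 3136, 3796 and 5232 counts on HFD and 1372, 207 and 149 on RD. The groups were apart, with a log2 fold change of 2.88 (SE 0.759, edgeR adjusted p = 0.936). The other was Fcp3C, which encodes a follicle cell protein, with 518, 229 and 86 counts on HFD and 142, 17 and 14 on RD. Its groups overlapped, with a log2 fold change of 2.35 (SE 0.962, edgeR adjusted p = 0.936).

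The germline, follicle cell and yolk protein lists differed little between diets beside these genes. The yolk protein genes were not particular to the ovary. Their summed level was 6185 to 9490 CPM in female heads and 1976 to 3471 in female bodies. The median log2 fold change was -0.05 for the 10 ovarian germline genes, 0.07 for 10 follicle cell genes and 0.17 for the 3 yolk protein genes, with 0 of the 23 called by edgeR and 0 with an unadjusted p below 0.05. The summed germline level was 2494 to 2613 CPM on HFD and 2456 to 2824 on RD, so the groups overlapped. Of the lists for other tissues, 2 of 10 testis, 0 of 8 accessory gland, 9 of 12 photoreceptor and 2 male dosage compensation genes (of 3 matched under 5 listed symbols) could be tested in female bodies, and 0 were called by edgeR or had an unadjusted p below 0.05.

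**Figure D5:**
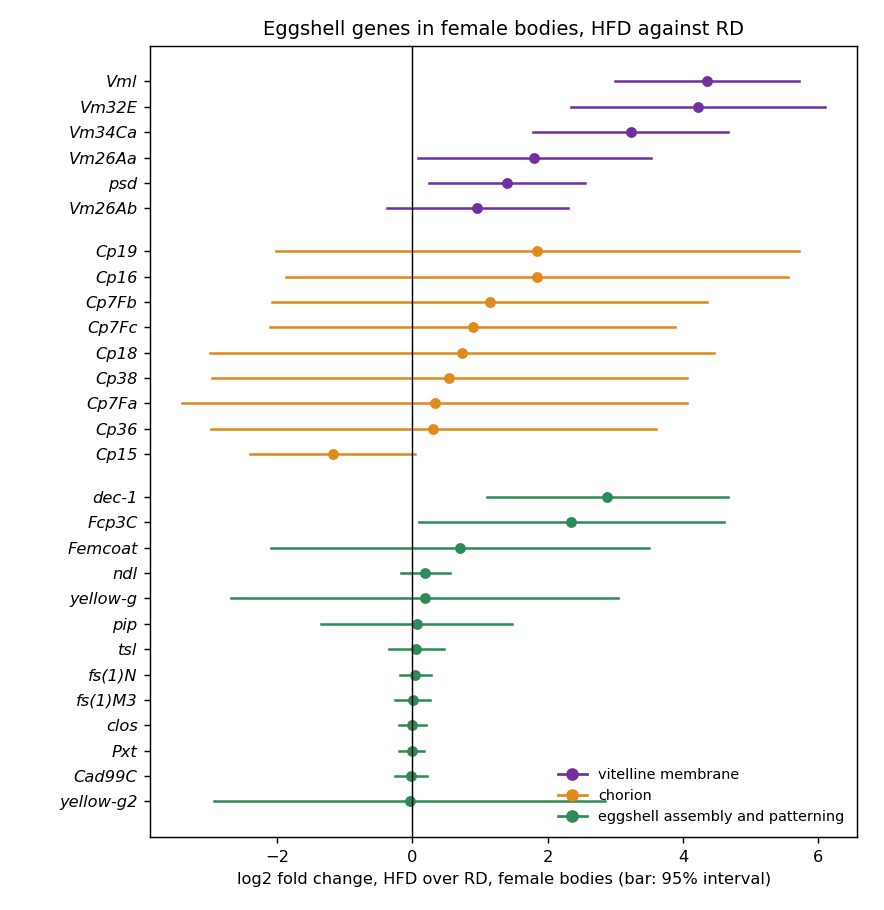
Log2 fold change of HFD over RD in female bodies, with 95% intervals from the edgeR fit, for the vitelline membrane, chorion, and eggshell assembly and patterning genes tested. The intervals of Vml, Vm32E, Vm34Ca, Vm26Aa and psd lie above 0, that of Vm26Ab spans 0, and the 9 chorion intervals all span 0.

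The genes whose pattern over the 6 female body libraries was most like the mean of the 7 were Ih, Mlp84B, CG42492, TyrRII, CR44119, nAChRalpha3, amon, Shab, CG5953 and CG6424, with a Pearson r of 0.990 to 0.949 on the log2(CPM + 1) scale. Their levels moved far less, with log2 fold changes between 0.15 and 0.74. Among the eggshell genes dec-1 was nearest, with r = 0.876 and rank 52 among the genes tested, Fcp3C had r = 0.587, and Cp15 had r = -0.874. These r describe 6 libraries that share diets and pools.

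Outside female bodies no effect of diet on these genes could be measured. In female heads the 7 genes together had 9, 12 and 13 reads on HFD and 13, 5 and 5 on RD. In male heads they had 2, 4 and 8 on HFD and 2, 5 and 7 on RD. None of the 7 passed the filter on low counts in female heads, male bodies or male heads, so a difference between diets there was not detectable at this depth.

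The difference in diet effect between tissues and between sexes was fitted as an interaction, in which the genes entered through female bodies alone. Between bodies and heads of females, edgeR called 0 of the 6 vitelline membrane genes that entered the fit and 0% of 11160 genes, and DESeq2 and limma-voom called 0 genes with a larger HFD effect in bodies. At an unadjusted p below 0.05 in that direction there were 1 of the 6 (Vml) and 1.94% of all genes. Between female and male bodies, edgeR called 0 of the 6 and 0% of 13425 genes, and DESeq2 and limma-voom called 0 genes with a larger HFD effect in females. At an unadjusted p below 0.05 in that direction there were 1 of the 6 (Vml) and 1.82% of all genes. The estimate for Vml between sexes was 4.20 on the log2 scale (SE 1.84, edgeR adjusted p = 0.999949), and it ran from 3.16 without male body RD replicate 2 to 8.43 without male body HFD replicate 2. With 57 reads of the 7 genes in all female heads and 51 in all male bodies, these fits say nothing on whether the difference between diets was particular to female bodies.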

How the data were processed

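RNA was sequenced from heads and bodies of w1118 flies in 24 libraries. The tables that the authors deposited hold raw counts of reads for each gene, with no scaling, beside a column of gene lengths. The submitters' processing notes name featureCounts and dm6. By the study's methods, libraries came from a TruSeq Stranded mRNA kit and were aligned with TopHat at default settings. The methods name a mouse annotation for gene models. The strand setting and the handling of reads matching several genes are not given in the sources used here, and the methods and the labels differ in the number of bodies per library (10 by the labels).

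Each comparison was fitted on its own libraries with edgeR 4.0.16 (R 4.3.3; filterByExpr with a minimum count of 10, TMM, glmQLFit and glmQLFTest, Benjamini-Hochberg threshold 0.05), after the fit was tested on simulated data. Intervals of log2 fold changes use the t distribution. CPM were scaled by TMM over the 24 libraries, and TPM used the deposited lengths. DESeq2 1.42.0, limma-voom (limma 3.58.1), other size factors, other count filters, leaving out each library, a fit of all libraries and a replicate block were alternatives. The genes, and the 9 lists set beside them, were chosen with earlier results of these data known. The text names all 7 genes, the chorion and eggshell assembly genes, and the 10 genes of most similar pattern. One of 14 assembly genes listed was not matched by symbol, nor were 2 of the 5 dosage compensation symbols. Replicate numbers are not said to pair libraries. Same-numbered libraries correlated over 0.1 in every pair between HFD female bodies and HFD female heads (r 0.119 to 0.212), and in no other comparison with 3 numbers. The fits reported for all comparisons, that one included, were unpaired, and the replicate block was an alternative only. Promoter sequences were not analysed here.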

Additional observations from a re-analysis of the deposited data

How the results depend on the processing

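The count of vitelline membrane genes called between diets in female bodies was 0 and became 1 (Vml) with DESeq2 and 1 (Vml) with all 24 libraries in one fit, and stayed at 0 with each library left out (0 to 0 of the genes called). Of 82 alternative values for the 6 genes there, 80 kept their direction and side of the threshold, and the 2 others are those of Vml. With each library left out, the log2 fold change ran from 3.90 to 5.13 for Vml, 3.68 to 6.03 for Vm32E, 2.76 to 3.69 for Vm34Ca, 1.33 to 2.59 for Vm26Aa, 1.03 to 1.88 for psd and 0.40 to 1.51 for Vm26Ab. With the replicate block, which is no pairing by design in this comparison, it was 4.47 for Vml and 0 genes were called. With that block no call on a vitelline membrane gene in any comparison changed, HFD female bodies against heads included. The interactions reversed in sign for Vm26Ab (-0.14, with each library left out up to 4.23) and psd (-2.75, up to 1.38) between tissues without female head RD replicate 2, and for Vm26Aa between sexes without male body RD replicate 1 (-0.35, up to 3.61) and with the replicate block (-0.11). The cause was not tested, and each rests on a few reads outside female bodies. The values for sexes and tissues kept direction and call under all alternatives that could be fitted. Leaving out libraries, a choice made after seeing the data, moved the pooled ratio to male bodies outside its counting interval for psd (138) and for the sum of the 7 genes (417 without female body HFD replicate 4, 789 without male body HFD replicate 2), and that to female heads for the sum (384 without female body HFD replicate 4). Requiring at least 10 counts in every library left none of the 7 genes to test in those 4 comparisons and the 2 interactions. Scaling by other factors moved the median of all genes by over 0.1 on the log2 scale between sexes (from -0.40 to -0.24 on RD with total counts), far below the values of these genes. Ranking by Spearman's rho kept 3 of the 10 most similar genes.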

Other observations

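Restricting the search for similar patterns, after the data had been seen, to the 130 other genes whose highest female body CPM was at least 4 times the lowest and at least 5 gave 10 genes, none of them among the 10 named above. The nearest were dec-1 (r = 0.876), Ir7c (r = 0.868) and CG14309 (r = 0.850), over the 6 female body libraries, 3 on each diet. Ir7c had 3 to 139 counts per female body library and a log2 fold change of 2.69 for HFD over RD (SE 0.685). Unlike the vitelline membrane genes, Ir7c was also well read in male bodies, with 84 to 132 counts per library. There dec-1 had 39 to 64 and CG14309 0 to 4. CG14309 had 2 to 1093 counts per female body library and a log2 fold change of 3.51 (SE 1.07). These genes were picked for likeness to a mean that holds the diet difference, so their fold changes are no separate evidence. Neither Ir7c nor CG14309 was called by edgeR, with an adjusted p of 0.936 for each.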
